A study of Mus musculus with 42 samples.

Results

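The mitochondrial carrier family, Slc25, is made up of membrane proteins, most of them in the inner mitochondrial membrane, that move nucleotides, phosphate, organic acids, amino acids, acylcarnitines, cofactors and iron between the cytosol and the mitochondrial matrix. Its members were taken as every gene whose symbol starts with Slc25a and a number, which gave 45 of the 19237 gene names listed in the deposited tables. The tables give normalized counts, which are the reads of a gene divided by a size factor of the library. A member was tested in a table where its mean normalized count was at least 10, which held for 42 of the 45 members in at least 1 of the 12 tables and for 39 members in all 12. The other 3 were tested nowhere: Slc25a2 was listed in 1 table with a highest normalized count of 7.38, Slc25a21 in 2 tables with a highest of 25.9, and Slc25a31 in 1 table with a highest of 12.3. Slc25a18 was tested in 4 of the 12 tables, Slc25a43 in 2 and Slc25a48 in 9.

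The study asked how loss of BMP signalling in the Gli1-positive stroma of the mouse colon, and how the cytokines IL-1 and IL-17A, act on colonic cells. Goblet cells marked by Muc2-mCherry and stromal cells marked by Gli1CreERT2-tdTomato were sorted from proximal and from distal colon at Day 30 after tamoxifen, with 2 libraries per group. Colonic organoids of genotype WT were left untreated or given IL1a+IL1b or IL17a at 10 nM for 12 or 72 hours, with 3 libraries per group. In all, 42 libraries of RNA-seq were listed, with 15647603 to 20783127 reads in the 12 goblet libraries, 14222902 to 23686940 in the 12 stromal libraries and 14815170 to 17665812 in the 18 organoid libraries.

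The control mice were Gli1CreERT2 (groups GWTM2 for goblet and GWTT for stromal cells), and they received tamoxifen as the knockouts did, so Cre activation and tamoxifen are shared by all sorted groups. The knockouts were Gli1CreERT2-Smad4-loxp (GS4M2 and GS4T) and Gli1CreERT2-Alk3-loxp (GA3M2 and GA3T), where Alk3 is the BMP receptor listed as Bmpr1a. The Cre driver acts in Gli1-positive stromal cells, so the goblet cells are neighbours of the deleted cells and not themselves the cells meant to lose the gene. Organoids are epithelial cultures without stroma, kept in medium with EGF, Noggin (a BMP inhibitor), R-spondin1, Wnt3a and CHIR. The study's methods give an age of 2 to 4 months for the mice. Every sample is labelled as intestinal epithelium, the stromal cells included.

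Mitochondrial carriers set which metabolites can be made in the matrix and used in the cytosol, or the reverse. The ADP/ATP carriers and the phosphate carrier feed ATP synthesis, the citrate and dicarboxylate carriers link the citric acid cycle to reactions of the cytosol, and the aspartate/glutamate carriers take part in the malate-aspartate shuttle. The colonic epithelium draws much of its energy from the oxidation of short-chain fatty acids in mitochondria, which makes carrier levels part of the description of its metabolic state.

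Some libraries were not separate samples. Control-12h replicate 2 and Control-72h replicate 1 held the same reads in 100% of the 14366 genes listed in both tables of the IL-17A arms, and so did Control-12h replicate 4 and Control-72h replicate 4. Across the tables of the IL-1 arms, only 2 of 14556 genes differed (99.9863% the same), which leaves 40 distinct libraries. Each control library also serves both knockouts of its cell type or both cytokines of its time. Close pairs, more alike than other replicates but not the same reads, were Control-72h 2 and 4 (chi-square per degree of freedom 3.30), IL1α+IL1β-12h 3 and 4 (3.03) and IL17A-12h 3 and 4 (3.32), against 18.05 to 212 in all other pairs within a group. The labels do not say whether replicates are separate animals, so the p-values measure only the spread between these samples.

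By reads of Xist and of Y-linked genes, the libraries also differed in sex. The goblet library GWTM2 replicate 1 was female in both segments and every other goblet library male, all GS4T and GWTT-Distal libraries were female, and GWTT-Proximal and GA3T had a male replicate 1 and a female replicate 2. In the organoids, the control and cytokine groups mixed both sexes except IL17A-72h, where all 3 libraries were male. Slc25a5, Slc25a14, Slc25a43 and Slc25a53 lie on the X chromosome.

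The targeted genes were read first. Smad4 was at 1604 and 1673 normalized counts in the proximal GWTT libraries and at 705 and 835 in GS4T (log2 fold change -1.09, limma, Benjamini-Hochberg adjusted p = 0.0101). In the distal segment it was at 1781 and 1703 against 680.3 and 1171 (-0.96, adjusted p = 0.0424). Smad4 was lower in every knockout stromal library, without reaching 0 in any. Bmpr1a was at 2960.0 and 3220.2 in proximal GWTT and 2233 and 1842 in GA3T (-0.61, adjusted p = 0.120), and at 3359 and 3485 against 2203 and 2043 in distal cells (-0.69, adjusted p = 0.101). The groups did not overlap, but neither difference passed the test. In goblet cells Smad4 lay at 1904 and 1684 against 1776 and 1845 in proximal and 2819.8 and 2790.3 against 2571 and 2682 in distal colon. In the goblet cells of the Alk3 comparison, Bmpr1a lay at 1966 and 2131 in GWTM2 against 1572 and 1336 in GA3M2 in proximal colon. In distal colon it lay at 1588 and 1868 in GWTM2 against 1372 and 1410.0 in GA3M2. The driver gene Gli1 was at 642 and 1597 in proximal GWTT and at 1481 and 23.9 in proximal GS4T, so GS4T-Proximal replicate 2 held little of it, and in the Alk3 table it was at 676 and 1679.6 against 1292 and 34.7, with GA3T-Proximal replicate 2 low as well. In distal cells it was at 1634 and 1353 against 875 and 1096 in GS4T and 1864 and 1540.1 against 792 and 1063 in GA3T.

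Markers of the sorted cells were read next. The 8 stromal genes summed to 41874 to 58185 CPM (reads scaled to the library total) in the stromal libraries of the Alk3 tables and to 0.876 to 2.71 in the goblet controls. The 7 epithelial genes summed to 10098 to 12086 CPM in the goblet controls. In the stromal controls they summed to 15.5 and 523 in the proximal and 58.7 and 185 in the distal segment, and in GS4T to more, 1261 and 1653 in proximal and 719 and 1439 in distal cells. In GA3T they summed to 516 and 832 in proximal and 1065 and 455 in distal cells. Muc2, which encodes the mucin that marks goblet cells, was at 179572 and 224217 normalized counts in proximal GWTM2 and at 18753 and 14042 in GA3M2 (adjusted p = 0.0464), and at 168657 and 212088 against 401714 and 356310.0 in the proximal Smad4 table (adjusted p = 0.237). In distal colon it was at 41156 and 109532 against 16015 and 12294 in GA3M2 (adjusted p = 0.306) and at 43021 and 113478 against 238217 and 194631 in GS4M2 (adjusted p = 0.430). In both segments each GA3M2 library lay below its controls and each GS4M2 library above them, and only the proximal GA3M2 difference passed the test.

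Some carriers lay apart between goblet and stromal cells, with a share of members not overlapping near that of all genes. The ADP/ATP carrier Slc25a5 (ANT2) and the mitochondrial aspartate/glutamate carrier Slc25a13 (citrin) were far higher in goblet cells, and the ADP/ATP carrier Slc25a4 (ANT1) was higher in stromal cells. Of the 40 members compared in the control libraries, 20 lay higher in all 4 goblet libraries than in all 4 stromal libraries (41.5% of all 13187 genes did), 8 lay higher in all stromal libraries (27.2% of all genes), and 28 did not overlap in either direction (68.7% of all genes). With scaling by TMM the split was 18 and 11, and leaving out GWTM2-Distal replicate 1 gave 21 and 10. These are levels in bulk samples, and no test was made of them.

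Among the adenine nucleotide carriers, Slc25a5 was at 1063, 958, 1142 and 1034 CPM in the goblet controls (proximal 1 and 2, then distal 1 and 2) and at 118, 134, 120.2 and 134 CPM in the stromal controls. Slc25a4 was at 24.2, 16.4, 37.0 and 21.0 CPM in goblet and 190.2, 163, 182 and 170.4 CPM in stromal libraries. The ranges of either gene did not come near each other, with a ratio of means of 8.28 toward goblet cells for Slc25a5 and of 7.16 toward stromal cells for Slc25a4. Per kilobase of exon, Slc25a5 stood first among the members in all 3 kinds of sample, at 638 CPM per kb in goblet cells, 77.0 in stromal cells and 753 in organoids. In stromal cells Slc25a4 came next on that scale, at 75.0 CPM per kb, and then the phosphate carrier Slc25a3 at 55.8. In goblet cells the order per kilobase was Slc25a5, then Slc25a3 at 160.0, the glutathione carrier Slc25a39 at 76.4 and the citrate carrier Slc25a1 at 70.8. All members together took 1618 to 1944 CPM of a stromal library, 3445 to 4714 of a goblet library and 3628 to 5249 of an organoid library.

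Some organic acid and amino acid carriers were higher in goblet cells, while the aspartate/glutamate carrier Slc25a12 and the glutamate carrier Slc25a22 overlapped between the cell types. The dicarboxylate carrier Slc25a10 was at 139, 198, 93.4 and 163 CPM in goblet and 8.14, 25.0, 9.54 and 15.1 CPM in stromal libraries, a ratio of 10.3. Slc25a13 was at 33.9, 45.7, 36.4 and 39.8 CPM in goblet cells and at 0.979, 2.16, 2.98 and 2.38 CPM in stromal cells, a ratio of 18.3. Both were higher in every goblet library than in any stromal library. Slc25a48, a carrier linked to choline, was at 2.22, 4.35, 4.36 and 4.69 CPM in goblet cells and 0.0612, 0.309, 0.0596 and 0 CPM in stromal cells, which rests on 265 and 7 reads, a ratio of 36.3, and it was at 32.3, 43.7, 45.9 and 39.3 CPM in organoid controls. Slc25a34 and Slc25a35 stood with these: Slc25a34 at 34.3, 50.5, 7.31 and 22.0 CPM in goblet and 0.673, 3.77, 0.894 and 0.835 CPM in stromal libraries (ratio 18.5), and Slc25a35 at 89.6, 92.6, 71.8 and 77.7 against 7.22, 7.54, 8.65 and 6.44 CPM (ratio 11.1). For Slc25a34 the distal goblet replicate 1 lay lowest. Of the exon bases of Slc25a35, 31.3% overlap the antisense gene Rangrf, and since strand handling in counting was not given, its reads cannot be told apart from those of Rangrf there.

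On the stromal side, the uncoupling-protein-like Slc25a27 was at 2.77, 2.27, 0.963 and 0.813 CPM in goblet and 20.4, 15.8, 18.7 and 19.4 CPM in stromal libraries, a ratio of 10.9. Slc25a45 was at 1.26, 1.39, 4.36 and 2.44 against 18.0, 14.7, 25.0 and 15.1 CPM (ratio 7.71). Slc25a23, a calcium-regulated carrier of ATP-Mg and phosphate, was at 22.3, 17.2, 6.29 and 10.3 against 27.5, 33.4, 32.4 and 33.3 CPM (ratio 2.26). In each of these every stromal library lay above every goblet library, with the closest approach for Slc25a23. The same held for Slc25a53, with a ratio of 3.14, and for the uncoupling-protein-like Slc25a30, with a ratio of 2.24.

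**Figure D1:**
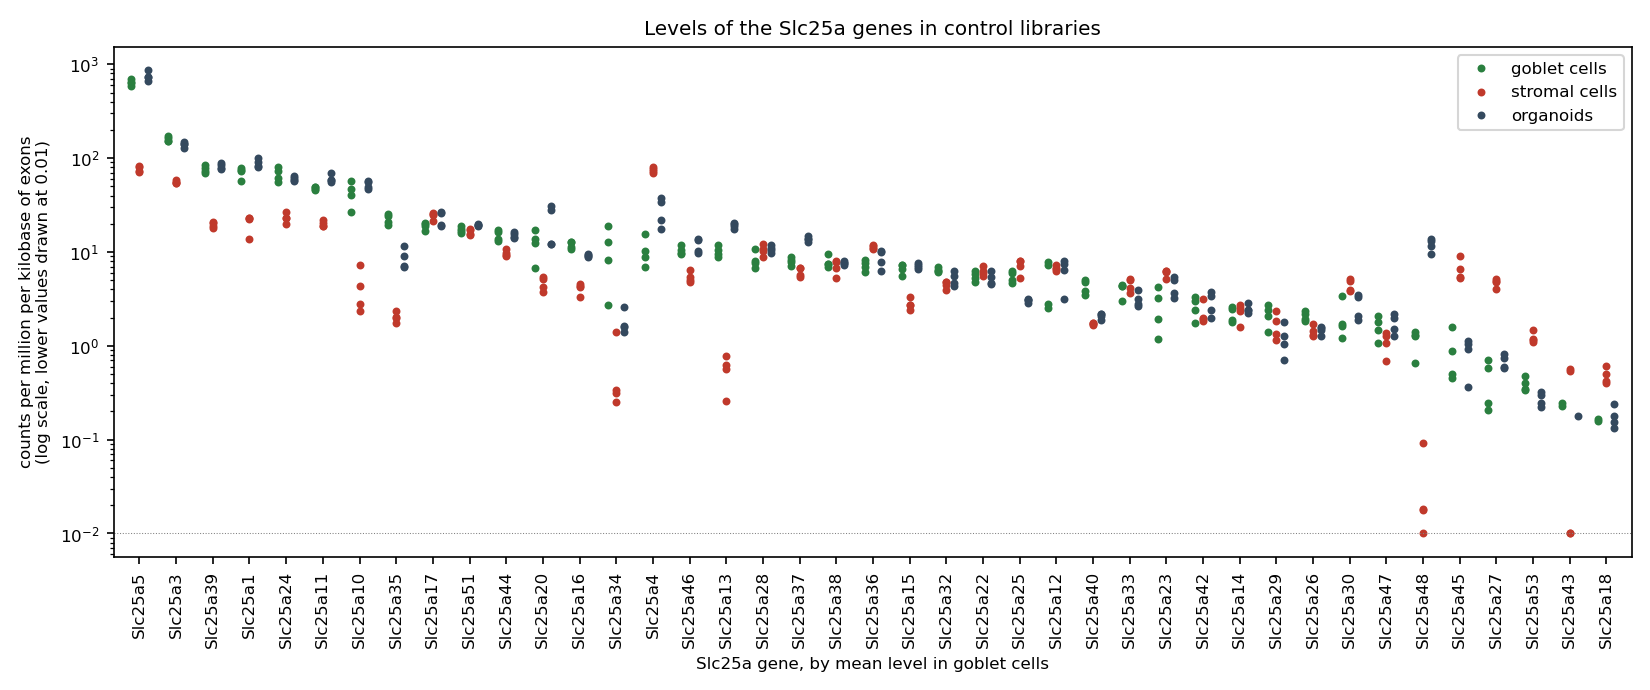
CPM per kilobase of exons, on a log axis, of each reported member tested in at least 1 table, with 1 point per control library of goblet cells, stromal cells and organoids and values below 0.01 drawn at 0.01. Slc25a5 has the highest mean in each kind, at 638 CPM per kb in goblet cells, 77.0 in stromal cells and 753 in organoids.

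After loss of Smad4 in the stroma, some carriers differed in the sorted stromal samples, in which markers of other cells also moved. In both segments the ADP/ATP carrier Slc25a5, the aspartate/glutamate carrier Slc25a13, the carnitine/acylcarnitine carrier Slc25a20 and the NAD+ carrier Slc25a51 rose, and the ATP-Mg/phosphate carrier Slc25a23 fell. By limma with Benjamini-Hochberg adjustment over all genes, 8 of 40 members were called in proximal cells (5 up and 3 down, 20%, beside 15.6% of all genes) and 8 of 42 in distal cells (6 up and 2 down, 19.0%, beside 23.2% of all genes). These shares lie near those of all genes. The 5 named members were called in both segments. On GRCm38 with GENCODE M21 annotation they lie at chrX:36795651-36798807 (Slc25a5), chr6:6041218-6217173 (Slc25a13), chr9:108662088-108684641 (Slc25a20), chr4:45395923-45408766 (Slc25a51) and chr17:57043711-57059863 (Slc25a23). The members' median log2 fold change was 0.13 in proximal and 0.11 in distal cells, against 0.02 and 0.00 over all genes.

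Of the adenine nucleotide carriers, Slc25a5 was at 2002 and 2228 normalized counts in proximal GWTT and 3771 and 4168 in GS4T, and at 1970.4 and 2172 against 3897 and 3613 in distal cells. Every knockout library lay above every control library in both segments. The log2 fold change was 0.91 (SE 0.11, adjusted p = 0.0118) in proximal and 0.86 (SE 0.11, adjusted p = 0.00577) in distal cells. Slc25a4, the muscle-type ADP/ATP carrier, was at 3216 and 2708 against 3182 and 3499 in proximal and 2991 and 2767 against 3447 and 2704 in distal cells, with groups that overlapped in both segments.

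Of the phosphate and ATP-Mg carriers, Slc25a23 was at 464 and 554 in proximal GWTT and 229.6 and 195 in GS4T, and at 531 and 541 against 198 and 182 in distal cells. All knockout libraries were below all controls (log2 fold change -1.26, SE 0.18, adjusted p = 0.0159, and -1.49, SE 0.16, adjusted p = 0.00356). The phosphate carrier Slc25a3 was at 5068 and 5113 against 5482 and 5510.0 in proximal and 5005 and 5278 against 5331 and 5791 in distal cells, a log2 difference of 0.11 and 0.11 that did not pass the test.

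Of the aspartate and glutamate carriers, Slc25a13 was at 16.5 and 35.9 in proximal GWTT and 93.1 and 142 in GS4T, and at 48.9 and 38.7 against 112 and 106 in distal cells. The knockout libraries were higher throughout, from a low level in the controls (log2 fold change 2.19, SE 0.51, adjusted p = 0.0478, and 1.30, SE 0.32, adjusted p = 0.0380). Of the di- and tricarboxylate carriers none of 3 was called by limma or edgeR, and DESeq2 called Slc25a10 in distal cells (0.86, adjusted p = 0.0306). The dicarboxylate carrier Slc25a10 was at 138 and 415 against 371 and 492 in proximal cells, which overlapped, and at 156 and 246 against 345 and 388 in distal cells, which did not (adjusted p = 0.0557). The citrate carrier Slc25a1 was at 506 and 797 against 929.6 and 1006 in proximal cells (adjusted p = 0.139).

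The carnitine/acylcarnitine carrier Slc25a20, which brings fatty acids into the matrix for oxidation, was at 305 and 432 in proximal GWTT and 647 and 692 in GS4T, and at 414 and 337 against 583 and 658 in distal cells. Knockout libraries lay above controls in both segments (log2 fold change 0.88, SE 0.20, adjusted p = 0.0454, and 0.73, SE 0.17, adjusted p = 0.0291). Among the carriers of other amino acids, Slc25a29, a carrier of basic amino acids, was at 49.9 and 56.1 in distal GWTT and 114 and 163 in GS4T (1.35, SE 0.32, adjusted p = 0.0337). Slc25a48 had 1 and 0 reads in distal GWTT and 20 and 30 in GS4T, a ratio of 51.3 after scaling to library totals, with an exact 95% interval of 8.79 to 2064 that covers counting error only. Its fitted log2 fold change of 4.21 (adjusted p = 0.0244) ran from 1.76 to 5.76 over the alternatives and depends on the pseudocount. The ornithine carrier Slc25a15 was at 227 and 255 against 271 and 268 in proximal cells and 309 and 247 against 303 and 309 in distal cells, where the groups overlapped, and it was not called in either.

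Among the nucleotide and cofactor carriers, Slc25a51, which carries NAD+, was at 1444 and 1379 in proximal GWTT and 2269 and 2020.4 in GS4T, and at 1584 and 1523 against 2326 and 2756 in distal cells. The knockout libraries were higher in both (log2 fold change 0.60, SE 0.11, adjusted p = 0.0256, and 0.70, SE 0.12, adjusted p = 0.0135). The pyrimidine nucleotide carrier Slc25a33, 14.9% of whose exon bases are shared with Gm13068, fell in proximal cells from 162 and 161 to 65.5 and 76.7 (-1.18, SE 0.26, adjusted p = 0.0409). It was lower in each proximal knockout library than in each control.

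None of the 4 iron and glutathione carriers was called by limma, edgeR or DESeq2. The iron carrier Slc25a37 (mitoferrin 1) was at 550.1 and 571 against 667 and 689.7 in proximal and 669 and 657 against 896 and 735 in distal cells, higher in each knockout library without passing the test (adjusted p = 0.159 in proximal cells). In the remaining group, Slc25a35 rose in proximal cells from 122 and 125 to 219 and 228 (0.85, SE 0.20, adjusted p = 0.0488). Slc25a27 fell in distal cells from 307 and 315 to 106 and 137 (-1.36, SE 0.22, adjusted p = 0.0114), and in proximal cells it was at 344 and 262 against 198 and 119.6 (adjusted p = 0.0983).

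**Figure D2:**
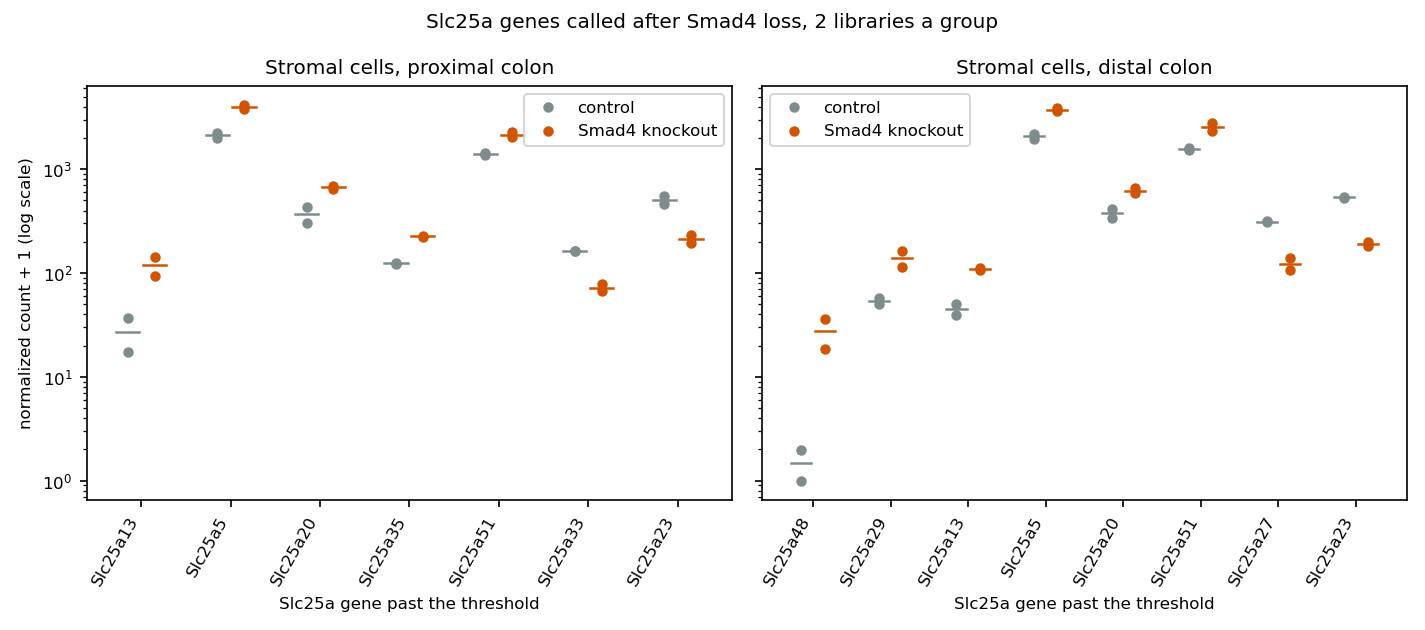
Normalized count + 1, on a log axis, of the reported members called after Smad4 loss in proximal (left) and distal (right) stromal cells, with 1 point per library and a line at each group's mean. Slc25a5 lies at 1970 to 2228 in controls and 3613 to 4168 in knockouts, with Slc25a23 lower in every knockout library.

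These calls rest on few libraries, and the counts below show how they moved, not a difference from other genes. In proximal cells, edgeR called 5 members (2 up and 3 down) and DESeq2 8 (5 up and 3 down). Leaving out GWTT-Proximal replicate 1 left 3 called (Slc25a5, Slc25a23 and Slc25a51), leaving out replicate 2 gave 8 of which 5 were among the 8 calls of the full set, and leaving out GS4T-Proximal replicate 1 or replicate 2 left 0. Blocking on library sex kept Slc25a5, Slc25a23 and Slc25a51, as leaving out GWTT-Proximal replicate 1 did. That library is the only male one here, so the sex term sets it aside and is no separate check. In distal cells, edgeR called 8 and DESeq2 10. Leaving out GWTT-Distal replicate 1 left 1 (Slc25a23) and replicate 2 left 2 (Slc25a5 and Slc25a23), while leaving out GS4T-Distal replicate 1 gave 7 with 5 of the same and replicate 2 gave 5 with 4 of the same. Adjusted p over all alternatives ran from 4.38e-10 to 0.0455 for distal Slc25a23, and from 2.94e-08 to 0.0629 for distal Slc25a5. For proximal cells it ran from 1.25e-08 to 0.0958 for Slc25a5 and from 0.0033 to 0.255 for Slc25a13.

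Other mitochondrial genes were read in the same stromal libraries, where 15.6% of all genes were called in proximal and 23.2% in distal cells, and the shares of several lists lie near these. The outer membrane pores, which pass metabolites across the outer membrane, had 2 of 3 genes up in each segment. Vdac2 was at 1102 and 1370.0 in proximal GWTT and 2215 and 2227 in GS4T (0.85, adjusted p = 0.0194), and at 1332 and 1409 against 2206 and 2311 in distal cells (0.72, adjusted p = 0.00771). Of the family members named otherwise, the uncoupling protein Ucp2 was at 968 and 1185 against 2665 and 2235 in proximal (1.19, adjusted p = 0.0125) and 1559.7 and 1453 against 2573 and 2630.3 in distal cells (0.79, adjusted p = 0.00594). Both genes were higher in every knockout library. Mtch2 rose in distal cells (0.48, adjusted p = 0.0381), and Ucp1 and Ucp3 were listed at 0 or not at all. Of 12 genes of mitochondrial content 3 rose in each segment, with 12 and 11 higher, and the list summed to 27123 and 28516 in proximal controls and 33826 and 35537 in knockouts. Citrate synthase (Cs) was at 1576 and 1812 against 2577 and 2555 in proximal cells (0.60, adjusted p = 0.0273).

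Of 19 enzymes that work with carried metabolites, 3 rose in proximal cells, and 6 rose and 1 fell in distal cells. Got1, the cytosolic aspartate aminotransferase that works with the aspartate/glutamate carriers, was at 582 and 402 against 937 and 898 in proximal (0.92, adjusted p = 0.0406) and 456 and 525 against 1459.8 and 1222 in distal cells (1.45, adjusted p = 0.00310). Mdh2, the matrix malate dehydrogenase, was at 1172 and 1359.7 against 1769 and 1893 in proximal cells (0.53, adjusted p = 0.0419). Both were higher in all knockout libraries, and Alas1, the first enzyme of haem synthesis, rose as well, from 897 and 873 to 1417 and 1453 in proximal cells (adjusted p = 0.0151). Of 10 genes that import carriers into mitochondria none was called in either segment by limma (2 and 1 at an unadjusted p under 0.05), with 9 and 8 higher, and none of 9 regulators of mitochondrial biogenesis was called (2 and 1). Of 18 other inner membrane transporters 1 fell in each, the sodium/calcium exchanger Slc8b1, at 1305 and 1287 against 915 and 805 in proximal cells (-0.59, adjusted p = 0.0298). The most abundant genes of these lists were Vdac1, Mtch1, Atp5b, Oat, Tomm70a, Pprc1 and Sfxn3.

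Markers of other cells also moved with these results, and in bulk samples fewer cells of a type and less RNA per cell cannot be told apart. Macrophage markers, led by Lyz2, had 8 of 10 up in proximal and 5 of 10 in distal cells, with sums of 3037 and 4842 in proximal controls, 28869 and 19583 in proximal knockouts, 12247 and 9831 in distal controls and 39487 and 23571 in distal knockouts. Neutrophil markers, led by Mmp9, had 5 of 7 and 8 of 8 up, with sums of 84.8 and 239, then 2053 and 1800.1, and in distal cells 259 and 233, then 8350.2 and 5478. Epithelial markers, led by Krt8, had 1 of 7 and 7 of 7 up, with sums of 262 and 8677 against 20535 and 28269 and of 963 and 3007 against 11785 and 24037. In all 3 lists each knockout library lay above each control library of its segment. Goblet markers, led by Muc2, had 2 of 10 up, and 5 up and 2 down, with sums of 80.6 and 6399 against 7684 and 18379 and 2384 and 4836 against 4953 and 14847. B and plasma cell markers, led by Igha, had 1 of 7 and 7 of 7 down, with sums of 170366 and 274302 against 57708 and 103887 and of 351203 and 454793 against 14784 and 93221. Proliferation genes, led by Pcna, had 6 of 10 up and 1 down, then 5 of 10 up, with sums of 2602 and 2647 against 4030.1 and 4293 and of 2207 and 3211 against 6959.5 and 3870.4.

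The remaining lists were read in the same way. T cell markers, led by Lck, had 0 of 6 and 1 of 5 down, with sums of 422 and 308 against 172 and 271 and 182 and 233 against 49.6 and 132. Endothelial markers, led by Tek, had 1 up and 1 down of 5, then 1 down of 5, with sums of 2769 and 2876 against 947 and 1637 and 1647 and 1558 against 607 and 2116. Of these 5 genes 4 were higher in proximal and 3 in distal cells (median log2 fold change 1.25 and 0.43). The lower proximal sum therefore does not describe the list as a whole. Absorptive colonocyte markers had 0 and 2 of 8 up, with 6 and 5 of 8 higher (median log2 fold change 1.52 and 0.41). The stromal list itself had 1 of 8 down in proximal cells, and 1 up and 3 down in distal cells. None of the markers of other cells in these lists was at 0 throughout. Of the called members that rose, Slc25a5, Slc25a13, Slc25a20, Slc25a35 and Slc25a48 were higher in every goblet control than in every stromal control. Slc25a20 was at 60.4, 83.4, 32.9 and 67.2 CPM against 18.0, 26.1, 25.2 and 20.7 CPM. Slc25a29 and Slc25a51, which also rose, overlapped between the cell types. Among those that fell, Slc25a23 and Slc25a27 were higher in every stromal control, and Slc25a33 overlapped. The part of any of these cells in the members' changes was not tested.

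The comparison for loss of Alk3 in the stroma shares its control libraries with the Smad4 comparison. In stromal cells it gave no member called by edgeR or by limma without a block. DESeq2 called 2 in proximal and 1 in distal cells. Slc25a5 was at 2106 and 2342 in proximal GWTT and 2743 and 3285 in GA3T, and at 2248 and 2472 against 3587 and 3628 in distal cells. The knockout libraries lay above the controls in both segments, by 0.43 (adjusted p = 0.180) and 0.61 (adjusted p = 0.116) on the log2 scale, without passing the test. Slc25a51 was at 1519.7 and 1450.1 against 2059 and 2271 (adjusted p = 0.102) and 1807 and 1733 against 2283 and 2849 (adjusted p = 0.172). Slc25a20 was at 321 and 455 against 530.1 and 484 in proximal and 472 and 383 against 691 and 589 in distal cells. Slc25a13 was at 17.4 and 37.7 against 47.1 and 79.3 and 55.8 and 44.1 against 74.4 and 82.9. In each of these 3 the knockout libraries lay above the controls in both segments, with none passing the test. Slc25a23 was at 488 and 583 against 449 and 397 and 606 and 616 against 527 and 399.8, lower in each knockout library. The calcium-regulated ATP-Mg carrier Slc25a25 had the smallest p in proximal cells, at 1115 and 966 against 676 and 611 (-0.69, adjusted p = 0.0993).

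By limma, 0 of 40 members were called in proximal stromal cells after Alk3 loss (0.358% of all genes were), with 5 at an unadjusted p under 0.05 (12.5%, beside 21.6% of all genes), 0 by edgeR and 2 by DESeq2 (Slc25a25 and Slc25a51, among 1607 of 15346 genes). In distal cells 0 of 41 were called by limma (0% of all genes), with 5 at an unadjusted p under 0.05 (12.2%, beside 18.7% of all genes), 0 by edgeR and 1 by DESeq2 (Slc25a5, among 1138 of 15414 genes). Leaving out GA3T-Distal replicate 1 called Slc25a51 (0.69, adjusted p = 0.0429) and Slc25a27 (-1.48, adjusted p = 0.0416), beside 826 genes. The members' medians were 0.04 and 0.02, against 0.01 over all genes in both segments. No gene of any list was called here by limma. All 10 macrophage markers were higher in proximal cells (3195 and 5091 against 14204 and 25948) and 8 of 10 in distal cells. All 7 epithelial markers and all 7 tested neutrophil markers were higher in both segments. So were 9 of 10 proliferation genes, with 7 and 9 of the 10 at an unadjusted p under 0.05. Of 7 B and plasma cell markers 0 were higher in either segment. The part of these markers in the members' values was not tested. The difference between the Smad4 and Alk3 comparisons was not tested.

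Goblet cells, whose own genes are not the target, had no member called by edgeR or unblocked limma in any of the 4 knockout comparisons. DESeq2 called 2 in each of 3 of them. With a replicate block limma called Slc25a34 (adjusted p = 0.00688) and Slc25a10 (0.0410) after proximal Smad4 loss. After proximal Alk3 loss it called Slc25a34 (0.00133) and Slc25a4 (0.00484). Blocking on library sex, which sets aside GWTM2 replicate 1 as the only female library, also changed calls, as given under the processing. By limma without a block, the member with the smallest p was Slc25a34 in both proximal comparisons. After Smad4 loss it was at 584 and 866 in GWTM2 and 251 and 318 in GS4M2 (-1.33, adjusted p = 0.0832), and after Alk3 loss at 621 and 915 against 310.0 and 273 (-1.37, adjusted p = 0.141). The knockout libraries were lower in both, against the same control libraries. The glutathione carrier Slc25a39 was at 3954 and 3714 against 2783 and 2761 after Smad4 loss (-0.47, adjusted p = 0.112). Slc25a4 was at 439 and 298 against 754 and 885 in proximal cells after Alk3 loss (1.17, adjusted p = 0.163), and Slc25a37 at 854 and 964 against 575 and 556 (-0.68, adjusted p = 0.222). Slc25a37 was also lower in distal cells, at 843 and 743 against 449 and 504 (-0.73, adjusted p = 0.318). Slc25a5, the most-read member there, was at 18094 and 16420.2 against 15547 and 14846 in proximal cells after Smad4 loss and at 19265 and 17359 against 19486 and 28529 after Alk3 loss, which did not overlap although neither passed the test.

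In proximal goblet cells limma called 0 of 40 members after Smad4 loss (0.325% of all genes), with 11 at an unadjusted p under 0.05 (27.5%, beside 16.7% of all genes), 0 by edgeR and 2 by DESeq2 (Slc25a34 and Slc25a39, among 569 of 13246 genes), and without GWTM2-Proximal replicate 1 it called Slc25a34 (-1.61, adjusted p = 0.0369, beside 157 genes). In distal goblet cells limma called 0 of 40 (0% of all genes), with 2 at an unadjusted p under 0.05 (5%, beside 10.6% of all genes) and 0 by edgeR and by DESeq2, and without GWTM2-Distal replicate 1 it called Slc25a24 (-0.75, adjusted p = 0.0334, beside 458 of 13078 genes). The smallest p there belonged to the aspartate/glutamate carrier Slc25a12, at 944 and 1030.1 against 778 and 733 (adjusted p = 0.440). The proximal GS4M2 libraries were taken by their deposited names, since headings in the study's supplementary tables name the groups of that comparison the other way round. The GWTM2-Proximal libraries hold the same reads in the Alk3 table, where they carry the same name (100% of 13683 genes). No gene of any list was called by limma in either segment after Smad4 loss. In proximal cells 6 of 8 absorptive colonocyte markers, led by Car1, had an unadjusted p under 0.05, with sums of 57043 and 124170.0 against 21602 and 37501, as did 6 of 10 proliferation genes, led by Mki67, all 10 lower, with sums of 15235 and 14975 against 13129 and 11764, and 6 of 12 genes of mitochondrial content, led by Atp5b, with sums of 120685 and 111715 against 101126 and 99674. Each knockout library lay below each control in these 3 sums, and their part in the members' values was not tested.

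After Alk3 loss, limma called 0 of 40 in proximal goblet cells (0.0899% of all genes), with 6 at an unadjusted p under 0.05 (15%, beside 15.3% of all genes), 0 by edgeR and 2 by DESeq2 (Slc25a34 and Slc25a4, among 516 of 13346 genes). Without GA3M2-Proximal replicate 1 it called 5 (Slc25a34, Slc25a35, Slc25a22, Slc25a28 and Slc25a20, adjusted p from 0.0405 to 0.0476, beside 1716 of 13346 genes). In distal goblet cells limma called 0 of 40 (0% of all genes), with 4 at an unadjusted p under 0.05 (10.0%, beside 11.7% of all genes), 0 by edgeR and 2 by DESeq2 (Slc25a35 and Slc25a37, among 353 of 13082 genes). Without GWTM2-Distal replicate 1 it called 3 (Slc25a35, Slc25a34 and Slc25a4, beside 779 of 13082 genes) and without replicate 2 it called Slc25a20 (1.05, adjusted p = 0.0461, beside 338 genes). The members' medians in the 4 goblet comparisons were -0.03, 0.02, 0.07 and 0.04 in the order given, and those of all genes 0.00 at 2 decimals. Of the other lists, the macrophage markers had 2 of 7 up, the goblet list 1 of 10 down and the partner enzymes 1 of 20 down in proximal cells after Alk3 loss, the last being Cps1, which makes carbamoyl phosphate in the matrix, at 192 and 146 against 2.01 and 4.61 (-5.36, adjusted p = 0.0471). Ly6g, the gene of the neutrophil list that could be tested, was there at 19.2 and 6.85 against 338 and 1550.5 (adjusted p = 0.0862), with Csf3r, Cxcr2, Retnlg, Mmp8 and Mmp9 of that list at 0 or not listed, and the list summed to 19.2 and 6.85 against 362 and 1574. Stromal markers in proximal cells summed to 38.4 and 49.1 against 147 and 572, higher in each knockout library. In distal cells no gene of any list was called by limma, while all 7 tested macrophage and all 3 tested neutrophil markers were higher. Of 10 goblet genes 3 were higher there, and 6 had an unadjusted p under 0.05. Of 10 proliferation genes 2 were higher, and 5 had an unadjusted p under 0.05. The part of any of these lists in the members' values was not tested.

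Whether a knockout acted differently in the proximal and distal segments was tested as an interaction. Limma called 0 of 40 members for Smad4 loss in goblet cells (0% of all genes, 2 at an unadjusted p under 0.05 beside 8.71% of all genes), 0 of 40 for Alk3 loss in goblet cells (0% of all genes, 0 at an unadjusted p under 0.05 beside 1.32% of all genes), 0 of 40 for Smad4 loss in stromal cells (0.195% of all genes, and 0 beside 10.1% at the unadjusted threshold) and 0 of 40 for Alk3 loss in stromal cells (0% of all genes, and 0 beside 6.88%). EdgeR and DESeq2 called 0 in each of the 4.

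**Figure D3:**
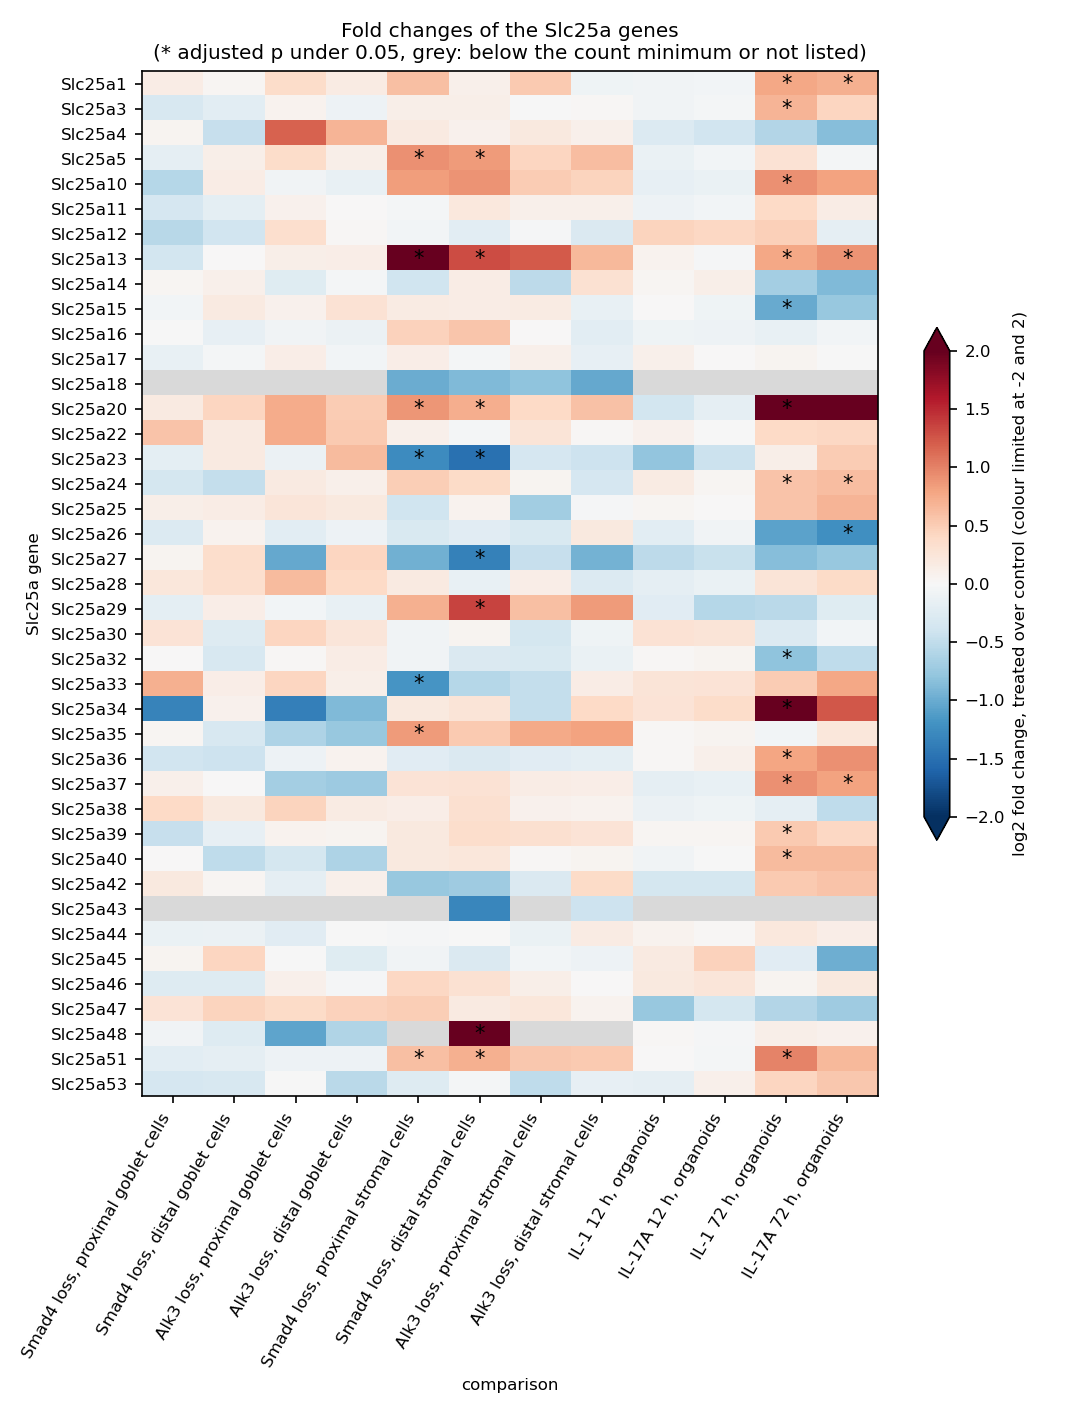
Log2 fold change of each reported member against control in the 12 comparisons, as colour limited at -2 and 2, with an asterisk for an adjusted p under 0.05 (limma) and grey where a member was not tested. With every member counted, calls lie in the stromal cells after Smad4 loss (8 and 8) and in organoids at 72 h (14 after IL-1 and 5 after IL-17A).

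In organoids, IL-1 for 72 h came with higher levels of 12 members and lower levels of the ornithine carrier Slc25a15 and the folate/FAD carrier Slc25a32. The largest fitted rise was that of the carnitine/acylcarnitine carrier Slc25a20, in groups that mixed the sexes unequally. Of 40 members tested, limma called 14 (12 up and 2 down, 35%, beside 38.4% of all genes), a share near that of all genes, with 14 by edgeR and 16 by DESeq2. The members' median log2 fold change was 0.28 against -0.00 over all genes, and 26 of 40 members were higher. Rescaling to the upper quartile moves every gene of a library alike, so it shifted both medians together, that of all genes to -0.10 and that of the members to 0.18, with 9 called up and 2 down. By role, the calls up were 0 of 2 adenine nucleotide carriers, 2 of 4 for phosphate and ATP-Mg, 2 of 3 for di- and tricarboxylates, 1 of 3 for aspartate and glutamate, 0 of 6 for other amino acids (1 down), the carnitine carrier, 2 of 9 for nucleotides and cofactors (1 down), 3 of 4 for iron and glutathione and 1 of 8 in the remaining group.

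Of the phosphate and ATP-Mg carriers, the phosphate carrier Slc25a3 was at 10860.3, 11984 and 12328 normalized counts in controls and 18352, 16240.4 and 22389 after IL-1, and Slc25a24 at 3344, 2971 and 3138 against 5318, 4112 and 4598. All treated libraries lay above all controls (log2 fold change 0.69, SE 0.17, adjusted p = 0.0175 for Slc25a3, and 0.56, SE 0.14, adjusted p = 0.0184 for Slc25a24). The ADP/ATP carriers were not called by limma, edgeR or DESeq2: Slc25a5 was at 18295, 18223 and 16436 against 19398, 20103 and 25939.9 (adjusted p = 0.219) and Slc25a4 at 1211, 774 and 616 against 403, 982 and 428 (adjusted p = 0.256). The groups overlapped for Slc25a4 and not for Slc25a5.

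Of the organic acid carriers, Slc25a1, which exports citrate, was at 3298, 2656 and 2674 in controls and 5656, 4671 and 4418 after IL-1. Slc25a10, which exchanges malate or succinate for phosphate, was at 2963, 2468 and 2553 against 5860.4, 3628 and 5887. Every treated library was higher than every control for both (0.77, SE 0.16, adjusted p = 0.00895, and 0.91, SE 0.21, adjusted p = 0.0131). The aspartate/glutamate carrier Slc25a13 was at 999.6, 1169 and 1113 against 2509, 1437 and 1776 (0.77, SE 0.21, adjusted p = 0.0242), also without overlap. Slc25a15, which exchanges ornithine for citrulline in the urea cycle, fell from 612, 648 and 582 to 278, 395 and 253 (-1.01, SE 0.21, adjusted p = 0.00882), with every treated library lower.

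The carnitine/acylcarnitine carrier Slc25a20 had the largest fitted rise, from 2054, 886 and 876 to 7223, 3011 and 7737 (2.24, SE 0.44, adjusted p = 0.00817). All treated libraries were higher, and within each group the female libraries lay lower than the male ones, control replicates 2 and 4 and treated replicate 2. The male libraries rose from 2054 to 7223 and 7737 and the female ones from 886 and 876 to 3011. More treated than control libraries were male, so the fitted 2.24 and its rank among members also hold this difference between the sexes. The iron carrier Slc25a37 rose from 1332, 1235 and 1224 to 2089.9, 2094 and 3108 (0.92, SE 0.18, adjusted p = 0.00816). The glutathione carriers rose too, Slc25a39 from 3308, 3728 and 3496 to 6172, 4241 and 4908 (0.52, adjusted p = 0.0393) and Slc25a40 from 264, 277 and 269.7 to 443, 326 and 510.1 (0.63, adjusted p = 0.0467). For all 3 the groups were apart, most widely for Slc25a37.

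Among the nucleotide and cofactor carriers, the NAD+ carrier Slc25a51 rose from 1625, 1639.6 and 1598 to 2811, 3011 and 3999 (1.00, SE 0.16, adjusted p = 0.00451), and the pyrimidine nucleotide carrier Slc25a36 from 921, 1475 and 1414 to 1783, 1934 and 2909 (0.79, SE 0.25, adjusted p = 0.0383). Slc25a32, which carries folate and FAD, fell from 425, 503 and 567 to 321, 262 and 269.8 (-0.80, SE 0.19, adjusted p = 0.0141). In all 3 no treated library overlapped the controls. In the remaining group Slc25a34 rose from 56.8, 64.8 and 63.6 to 167, 349.8 and 309 (2.07, SE 0.32, adjusted p = 0.00404), higher in each treated library.

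The count moved with the libraries used and with the model. With library sex as a block 12 members were called, 11 of the 14 among them. With a replicate block 2 members were called (Slc25a20 and Slc25a34, beside 1544 genes). That fit rests on the libraries numbered 1 and 2, the only numbers shared by the control and treated groups. Leaving out Control-72h replicate 2 left 6 (Slc25a1, Slc25a15, Slc25a20, Slc25a34, Slc25a37 and Slc25a51) and replicate 4 left 7, and leaving out IL1α+IL1β-72h replicate 2 gave 17 (beside 2737, 2815 and 5141 of 13023 genes). Without the control libraries that are also listed at 12 h, which leaves 1 control, no member was called by limma (0 of 40), and with the close pair of controls averaged, 6 were. The adjusted p over all alternatives ran from 1.8e-06 to 0.0721 for Slc25a20, from 1.83e-08 to 0.0903 for Slc25a34 and from 0.000265 to 0.135 for Slc25a15.

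**Figure D4:**
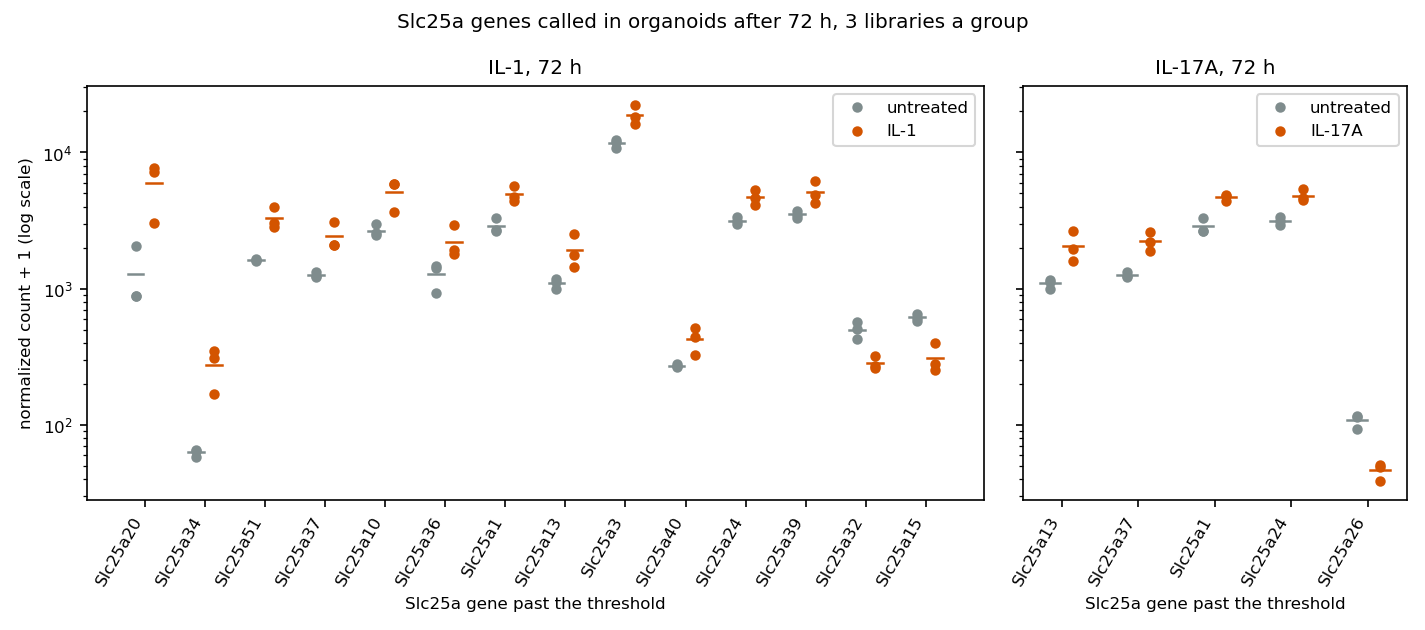
Normalized count + 1, on a log axis, of the members called at 72 h after IL-1 (left) and IL-17A (right), with 1 point per organoid library and a line at each group's mean. Slc25a20 lies at 876 to 2054 in controls and 3011 to 7737 after IL-1.

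Other mitochondrial genes moved both ways after IL-1 at 72 h, where 38.4% of all genes were called. All 3 outer membrane pores rose, with sums of 14919, 16712 and 16646 in controls and 24886, 21686 and 27214 in treated libraries, and Vdac1, their most abundant gene, at 6169.9, 7226 and 7221 against 10707, 9007 and 11686 (0.60, adjusted p = 0.0200). Of 10 genes that import carriers, 6 fell, with sums of 7955, 8104 and 7968 against 6341, 5586 and 4319.7, among them Timm8a1 at 334, 375 and 347 against 172, 122 and 57.0 (-1.72, adjusted p = 0.0120). Pores were higher and import genes lower in each treated library by these sums. Of 9 biogenesis regulators 3 rose and 4 fell: the coactivator Ppargc1a was at 250.1, 332 and 404 against 1018, 715 and 1394 (1.64, adjusted p = 0.00526) and Esrra, the most abundant, at 2229, 2087 and 1952 against 3595, 4444 and 5124 (1.06, adjusted p = 0.00396), while Tfam, which binds mitochondrial DNA, fell (-0.85, adjusted p = 0.00628). Of 12 genes of mitochondrial content 3 rose and 1 fell, with Cs at 8092, 8477 and 7987 against 19428, 12085 and 20929 (1.05, adjusted p = 0.00986) and the chaperonin Hspd1 at 8686, 11328 and 10851 against 3702, 3822 and 1977 (-1.75, adjusted p = 0.00392).

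Of 20 partner enzymes 5 rose and 3 fell. Cpt1a, which makes the acylcarnitines that Slc25a20 carries, was at 3049, 2379.8 and 2412 against 4368, 4188 and 5498 (0.84, adjusted p = 0.00831), and Cpt2, which uses them in the matrix, at 1453, 1223 and 1191 against 2131, 1609 and 1937 (0.55, adjusted p = 0.0287). Otc, the matrix enzyme that uses the ornithine Slc25a15 carries, was at 80.7, 152 and 184 against 13.2, 14.9 and 6.58 (-3.47, adjusted p = 0.00316). The first pair was higher and Otc lower in every treated library. The most abundant partner enzyme, Ckmt1, rose by 1.10 on the log2 scale. Of 17 other inner membrane transporters 1 rose and 2 fell, and of the 3 family members named otherwise none was called by limma (0 at an unadjusted p under 0.05).

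Cell-type lists moved at the same time. All 10 proliferation genes, led by Mki67, fell, with sums of 29766, 38820.5 and 38398 in controls and 8647, 8625 and 3036 after IL-1. Absorptive colonocyte markers, led by Car1, had 5 of 8 up, with sums of 71122, 30152 and 30320.2 against 99213, 118741 and 224656, and epithelial markers, led by Krt8, had 6 of 7 up, with sums of 156716, 142341 and 136936 against 269234, 268508 and 245761. Each treated library lay beyond every control in these 3 lists. Goblet markers had 2 of 10 down, 1 of 3 tested macrophage genes was up, and so was Ly6g, the gene of the neutrophil list that could be tested. Gli1, Col1a2, Col3a1, Dcn and Lum of the stromal list were at 0 or not listed, as were Lyz2, Csf1r and Adgre1 of the macrophage list, all 7 B and plasma cell markers and 7 of 8 neutrophil markers. The part of these shifts in the members' changes was not tested.

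IL-17A for 72 h, measured against the same control libraries, gave 5 called members of 40 (4 up and 1 down, 12.5%, beside 10.8% of all genes). The iron carrier Slc25a37 was at 1329.5, 1228 and 1222 in controls and 2194, 1872 and 2596 after IL-17A (0.81, SE 0.16, adjusted p = 0.0415). The citrate carrier Slc25a1 was at 3291, 2641 and 2668 against 4899, 4419 and 4776 (0.72, SE 0.15, adjusted p = 0.0428). Both were higher in all 3 treated libraries. The ATP-Mg/phosphate carrier Slc25a24 was at 3337, 2954 and 3131 against 5353, 4499 and 4601 (0.61, SE 0.14, adjusted p = 0.0463) and the aspartate/glutamate carrier Slc25a13 at 998, 1162 and 1110.3 against 2649, 1605 and 1936 (0.89, SE 0.21, adjusted p = 0.0465). Slc25a26, which carries S-adenosylmethionine, fell from 113, 92.8 and 114 to 48.2, 49.9 and 37.8 (-1.22, SE 0.29, adjusted p = 0.0465). None of the 5 overlapped between the groups.

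IL17A-72h replicate 2 stood apart from the other treated libraries for several members. Slc25a20 was at 2050.1, 881 and 874 against 6125, 1774 and 9106 (1.99, adjusted p = 0.0724). Slc25a3 was at 10838, 11916 and 12303 against 18079.5, 9726 and 21992 (adjusted p = 0.328), and Slc25a5 at 18258, 18119 and 16403 against 16733, 12274 and 24594 (adjusted p = 0.933). Its value fell between control values for Slc25a20, and below all controls for Slc25a3 and Slc25a5. Slc25a10 was at 2957, 2454 and 2548 against 5563, 3088 and 5755 (adjusted p = 0.0743) and Slc25a15 at 611, 644 and 581 against 349, 519 and 261 (adjusted p = 0.0895), apart in every library without passing the test. Slc25a4 was at 1208, 769 and 614 against 340.5, 697 and 402 (adjusted p = 0.120), which overlapped.

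EdgeR called 3 members (3 up and 0 down, beside 1131 of 13073 genes) and DESeq2 13 (10 up and 3 down, beside 3845). Leaving out IL17A-72h replicate 2 gave 19, the 5 above among them, beside 5373 of 13073 genes, and leaving out any other single library of this comparison (Control-72h replicates 1, 2 and 4, IL17A-72h replicates 1 and 3) gave 0. The sum of proliferation genes was 9774, 22524 and 3123 in the treated libraries and that of absorptive markers 89279.9, 48080.0 and 208034, against 29706, 38599 and 38321 and 68495, 29688 and 29932 in controls, with 1 of 10 down and 1 of 7 up and replicate 2 nearest to the controls in both. All libraries of the IL-17A group are male while the controls mix sexes, and with library sex as a block, without the control libraries listed at both times or with the close controls averaged, 0 members were called by limma. The members' median was 0.21 against -0.01 over all genes, with 24 of 40 higher, and upper-quartile rescaling moved these medians to 0.11 and -0.11 and the called members to 2 up and 1 down. Of the other lists, Otc among the partner enzymes (80.6, 152 and 184 against 12.3, 40.5 and 12.6, adjusted p = 0.0416) and Tfb2m, a mitochondrial transcription factor, among the regulators (559, 501 and 519.6 against 282, 351 and 222, adjusted p = 0.0478) fell. Epithelial markers had 2 of 7 up, with sums of 156397, 141528 and 136661 against 249701, 192615 and 270149 and Krt8 the most abundant, and 1 of 3 tested macrophage genes was up, with sums of 681, 1158 and 1191 against 4545, 1781 and 2445. Ly6g rose from 2008, 2232 and 2254 to 10690.0, 3990.4 and 15935 (adjusted p = 0.0454), and all 10 proliferation genes were lower at an unadjusted p under 0.05. All 10 import genes were lower with none called and 5 at an unadjusted p under 0.05, and none of the 3 pores was called by limma. The part of these markers in the members' changes was not tested.

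At 12 h no member was called for either cytokine by limma without a block, by edgeR or by DESeq2. With a replicate block limma called Slc25a23 after IL-1 (-0.58, adjusted p = 0.0111, beside 557 of 12913 genes) and Slc25a20 after IL-17A (0.25, adjusted p = 0.0256, beside 1002 of 12977). Those fits rest on the libraries numbered 1 and 4, the only numbers shared by the control and treated groups. After IL-1, Slc25a23 was at 428, 462 and 299.6 in controls and 343, 196 and 168 in treated libraries (-0.80, adjusted p = 0.886), and Slc25a47 at 105, 94.5 and 59.2 against 65.7, 45.3 and 39.1 (-0.77, adjusted p = 0.886). After IL-17A the smallest p belonged to Slc25a23, at 449.6, 484 and 314 against 407, 293 and 236 (adjusted p = 0.926), and to Slc25a27, at 39.4, 49.0 and 52.8 against 29.1, 46.5 and 29.1 (adjusted p = 0.926). The groups overlapped in all 4 of these. Slc25a20, the carrier with the largest fitted rise at 72 h, was at 2402, 2167 and 913 against 2225, 987 and 1021 after IL-1. The male libraries were high and the female libraries low in both groups. Limma called 0 of 40 members after IL-1 (0.0542% of all genes) with 2 at an unadjusted p under 0.05 (5%, beside 4.38% of all genes). After IL-17A it called 0 of 40 (0.0385% of all genes) with 0 at an unadjusted p under 0.05 (beside 5.14% of all genes). EdgeR and DESeq2 called 0 in both. The members' median was -0.03 in both, and no list gene passed the test.

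The response at 72 h was set against that at 12 h as a difference of log2 fold changes. For IL-1, 8 of 40 members were called (7 up and 1 down, 20%, beside 25.7% of all genes): Slc25a20 by 2.60 (adjusted p = 0.0231), Slc25a34 by 1.80 (0.0150), Slc25a37 by 1.10 (0.00938), Slc25a10 by 1.08 (0.0144), Slc25a51 by 0.99 (0.00603), Slc25a1 by 0.84 (0.0230) and Slc25a3 by 0.75 (0.0175) were higher at 72 h, and Slc25a15 was lower (-1.03, 0.0112). EdgeR called 9 (beside 3212 of 12681 genes) and DESeq2 12 (beside 4074). With library sex as a block 9 were called, the 8 above among them. For Slc25a20 the difference of 2.60 also holds library sex, as more controls than treated libraries were male at 12 h and fewer at 72 h. Since 2 control libraries hold the same reads at both times, their reads enter both arms: kept at 12 h only they leave 0 called, and kept at 72 h only they leave 3 (Slc25a20, Slc25a34 and Slc25a51). Leaving out IL1α+IL1β-12h replicate 3 left 5 (beside 1802 genes) and leaving out IL1α+IL1β-72h replicate 2 gave 15 (beside 4048). For IL-17A limma called 0 of 40 (0.0393% of all genes), with 16 at an unadjusted p under 0.05 (40.0%, beside 28.4% of all genes), 0 by edgeR and 10 by DESeq2 (among 1752 of 12731 genes), and 16 called by limma without IL17A-72h replicate 2 (beside 4062 genes). The members' medians were 0.28 and 0.27, against -0.03 over all genes in both, and upper-quartile rescaling moved the medians of all genes to -0.11.

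The promoters of the members called in both segments after Smad4 loss were read for sequences that Smad proteins are known to bind, since Smad4 is the deleted gene. Of the 5 members, 4 matched the RefSeq promoter table of build GRCm38.p6, Slc25a5, Slc25a13, Slc25a20 and Slc25a23, and Slc25a51 is missing from it. In the 250 bases before each start, on both strands, the palindrome GTCTAGAC was in none of them (in 55 of all 32851 promoters, 0.167%). The GC-rich GGCGCC was in Slc25a5 alone, 1 time (in 3149 promoters, 9.59%), and CAGAC was in Slc25a13 alone, 1 time (in 13861, 42.2%), and none of the 3 motifs contains another. The stretch before Slc25a5, whose gene lies at chrX:36795651-36798807 on the plus strand, is chrX:36795347-36795596 on the plus strand, printed because this gene rose in both segments, with GGCGCC in capitals.
Slc25a5: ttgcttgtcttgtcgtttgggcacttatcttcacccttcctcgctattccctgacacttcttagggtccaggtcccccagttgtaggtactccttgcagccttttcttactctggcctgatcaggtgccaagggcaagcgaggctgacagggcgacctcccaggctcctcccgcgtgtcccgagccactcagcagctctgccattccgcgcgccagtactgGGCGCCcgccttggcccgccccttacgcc
A match describes the letters only, and binding was not measured.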

How the data were processed

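RNA-seq of sorted goblet and stromal cells and of colonic organoids was read from 12 deposited tables, each holding the libraries of 1 comparison. The authors mapped reads to mm10 with STAR 2.5.3 and normalized them with DESeq2 1.28.1, per the submitters' processing notes, and deposited the signal per gene as normalized counts. Strand handling, read counter and annotation were not given in the sources used here. Dividing each library by its smallest step recovered whole reads for 100% of values within 0.1 of a whole number.

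A gene was tested in a table where its normalized counts averaged 10 or more, on log2(value + 1) by limma 3.58.1 with a mean-variance trend (R 4.3.3), knockout or cytokine against control, with Benjamini-Hochberg adjustment over all genes of the table, and called at an adjusted p under 0.05 at any fold. Fold changes on this scale understate the change of low genes. On the recovered reads, edgeR 4.0.16 (quasi-likelihood) called 2232 and 3257 genes after Smad4 loss in proximal and distal stromal cells, and DESeq2 1.42.0 called 3599 and 4173, beside 2384 and 3543 by limma. For IL-1 at 72 h they called 4977 and 5601 beside 5006, and for IL-17A at 72 h 1131 and 3845 beside 1408. Segment and time differences were interaction terms. Levels between cell types are CPM from the recovered reads of control libraries, with exon length from GENCODE M21. The scripts were tested on simulated data.

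Named were every called member where 8 or fewer were called (1 tested member is counted in the totals but not reported here), otherwise the 4 largest rises and 4 largest falls, or the 2 members with the smallest p where none was called, and Slc25a1, Slc25a3, Slc25a4, Slc25a5, Slc25a10, Slc25a13, Slc25a15, Slc25a20 and Slc25a37, which were followed in each comparison through the alternatives but whose values are printed only in some. As an exception, no member was named for the segment differences and the IL-17A time difference, where limma called none. By level, the 6 largest ratios in each direction were named, and of each list up to 4 called genes and its most abundant gene. Where other members or genes are named, they were picked after their values were seen. The members and lists were chosen with earlier results of these data known. Alternatives were another pseudocount (10), no filter, upper-quartile scaling, edgeR, DESeq2, a minimum log2 fold change of 1, a replicate block, leaving out each library and, added later, library sex as a block and other treatments of the shared and close libraries.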

Additional observations from a re-analysis of the deposited data

Results flagged for a closer look

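The response of 8 members to IL-1 differed between 72 h and 12 h by a test of the difference itself (limma, Benjamini-Hochberg adjusted), which is 20% of the 40 tested, beside 25.7% of all genes. On the log2 scale the difference was 2.60 for the acylcarnitine carrier Slc25a20, 1.80 for Slc25a34, 1.10 for the iron carrier Slc25a37, 1.08 for the dicarboxylate carrier Slc25a10, 0.99 for the NAD+ carrier Slc25a51, 0.84 for the citrate carrier Slc25a1, 0.75 for the phosphate carrier Slc25a3 and -1.03 for the ornithine carrier Slc25a15. Slc25a20 was higher in male libraries, and its value also holds a mix of sexes that differed between groups and times. The reads of 2 control libraries enter both times, and with those kept at 12 h only, none of these differences passed the test by limma (0 of 40 members).

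After Smad4 loss some members lay in opposite directions from control in goblet and stromal cells, with every library of the knockout above the controls in the one and below them in the other. In proximal colon the log2 fold change of Slc25a5 was -0.18 in goblet and 0.91 in stromal cells, that of the pyrimidine nucleotide carrier Slc25a33 was 0.71 and -1.18, and that of Slc25a51 was -0.21 and 0.60. The proximal goblet values rest on the deposited names of the GS4M2 comparison, and with its groups exchanged their signs would turn and no longer oppose those of the stromal cells. By these names the GWTM2-Proximal libraries hold the same reads as in the Alk3 table, and Muc2 is higher in each GS4M2 library than in its controls in both segments. In distal colon the log2 fold change of Slc25a51 was -0.17 in goblet and 0.70 in stromal cells, and that of Slc25a48 was -0.26 and 4.21. By the same rule, with a call in either cell type, this held for 3 of 39 members (7.69%) beside 2.99% of 12381 genes in proximal and 2 of 40 (5%) beside 3.60% of 12211 in distal colon. Shifts as small as -0.17 in goblet cells count here, with 2 libraries a group. The difference between the cell types was not tested, and none of the goblet values passed the test on its own.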

How the results depend on the processing

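Of 1991 values of 153 named results under the alternatives, 1910.0 kept their direction. With a minimum log2 fold change of 1, the members called after Smad4 loss were 3 in proximal and 5 in distal stromal cells, those after IL-1 at 72 h 3, those after IL-17A at 72 h 1, and those of the IL-1 time difference 5. EdgeR called 5 in proximal stromal cells after Smad4 loss and 3 after IL-17A at 72 h. DESeq2 called 2 after Smad4 loss in proximal goblet cells, 2 and 2 after Alk3 loss in proximal and distal goblet cells, 2 and 1 in proximal and distal stromal cells, 13 after IL-17A at 72 h and 10 in its time difference. Upper-quartile scaling called 3 after IL-17A at 72 h.

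The labels do not say that equal replicate numbers mark shared animals, and the organoid groups share fewer than 3 numbers, so the samples were not paired. Deviations of same-numbered libraries correlated at -0.06 to 0.30 in sorted cells, 0.62 to 0.64 in organoids at 12 h, 0.18 and 0.20 for IL-1 and -0.10 and -0.19 for IL-17A at 72 h. At 12 h differently numbered libraries ran from -0.77 (control 4 with treated 1) to 0.64 (control 4 with treated 3), so equal numbers did not stand out. Control 4 and treated 3 were female and treated 1 male, and the part of library sex in this was not tested. With the replicate block the counts were 2 and 2 in proximal goblet cells after Smad4 and Alk3 loss, 5 in proximal stromal cells after Smad4 loss, 1 and 1 at 12 h, 2 after IL-1 and 0 after IL-17A at 72 h, and 1 in the IL-1 time difference. Slc25a20 after IL-17A at 12 h turned from -0.17 to 0.25 with the replicate block (adjusted p = 0.0256). In organoids only libraries whose number both groups share bear on the fits with this block.

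The remaining alternatives were chosen after seeing the data. With library sex as a block, 1, 1 and 4 members were called in goblet cells (Smad4 loss proximal and distal, Alk3 loss distal), 3 in proximal stromal cells after Smad4 loss, 2 in distal stromal cells after Alk3 loss, 0 after IL-17A at 72 h and 3 in its time difference. After IL-1 this block gave 12 called at 72 h and 9 in the time difference. After IL-17A at 72 h Control-72h replicate 1 was the only male control beside treated libraries that were all male. In goblet cells, proximal stromal cells after Smad4 loss and distal ones after Alk3 loss, 1 library alone was of its sex. There the sex term sets that library aside, which repeats leaving it out and is no separate check. Where all libraries had the same sex no such fit was possible. Without the control libraries listed at both times 0 and 0 were called at 72 h, and with close pairs averaged 6 after IL-1, 0 after IL-17A and 0 in the IL-1 time difference. Control libraries kept at 12 h only gave 0 and at 72 h only 3 in that difference.

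Leaving out each library in turn gave 0 to 1, 0 to 1, 0 to 5 and 0 to 3 calls in goblet cells, 0 to 8 and 1 to 7 in stromal cells after Smad4 loss, 0 to 0 and 0 to 2 after Alk3 loss, 0 to 0 at 12 h, 6 to 17 after IL-1 and 0 to 19 after IL-17A at 72 h, 0 to 0 in the segment differences, 5 to 15 and 0 to 16 in the time differences, and 28 to 31 members with levels that do not overlap. A group left with 1 library was assumed to vary like the others. The cause of these changes was not tested.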
